A study of Mus musculus with 58 samples.

Results

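Histone lysine methyltransferases and demethylases were examined as a list of 44 genes in mouse prefrontal cortex. The members were the listed symbols whose mean normalised count over all libraries was at least 10, and all 44 listed genes met that limit, out of 18088 genes in the deposited table. The members comprised 27 genes of methyltransferase families and 17 of demethylase families. They were listed by function, but with earlier results of these data known.

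All animals were C57BL/6J mice, sampled on postnatal day 25, and the tissue was labelled prefrontal cortex. They carried the labels HT, heterozygous for Kmt5b, or WT, wild-type. Vehicle, fluoxetine or lithium reached the pups through maternal milk for 3 weeks, from day 3 to day 24, so no library came from an untreated or directly dosed animal. HT animals given vehicle, fluoxetine or lithium supplied 10 libraries per treatment, 5 from each sex. WT animals given vehicle or fluoxetine supplied 10 libraries each, 5 from each sex, and WT animals given lithium supplied 8, 4 from each sex. RNA was sequenced in bulk from a stranded library of polyadenylated RNA. The labels named no litter, which littermates would share along with the milk, nor the allele of Kmt5b, and p values measured only the spread between these libraries.

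Histone tails carry methyl groups on defined lysines, and each position is read by its own set of proteins. Methylation of lysine 4 on histone H3 (H3K4) marks promoters and enhancers in use, and that of H3K36 and H3K79 marks transcribed gene bodies. Methylation of H3K9 and H3K27 marks silenced chromatin. Most enzymes that add the group share a SET domain, whereas DOT1L, the H3K79 enzyme, has a different fold. Most enzymes that remove it belong to the Jumonji family, which uses oxygen and iron. KDM1A and KDM1B remove it as amine oxidases. In the brain, mutations in many of these genes, among them KMT2A, KMT2D, EHMT1, NSD1, SETD5 and PHF8, are known causes of human developmental disorders.

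The recovered depth was 23.5 to 38.6 M reads per library, with a median of 27.6 M. Kmt5b, whose product methylates histone H4, averaged 1734 ± 98.3 normalised counts in HT libraries (SD, n = 30) and 1654 ± 137 in WT libraries (SD, n = 28). The log2 difference was 0.07 (95% interval 0.02 to 0.12, adjusted p = 0.186 by limma, permutation p = 0.00768). It was 0.094 with the exon length slope, defined below, in the fit (adjusted p = 0.0096). The RNA level thus did not check the genotype labels, and HT and WT below mean libraries labelled so. All 12 excitatory cortical neuron markers were tested, and their summed level ranged from 52504 to 82510 normalised counts. The summed level of 12 olfactory bulb genes ranged from 4443 to 20784, and 10 libraries had a mean log2 level of these genes more than 1.5 below the average, 3 of them WT vehicle, 1 WT fluoxetine, 3 HT fluoxetine and 3 HT lithium. The libraries also differed in how level depended on gene length. The slope of log2 level on log2 exon length, computed over all genes tested, averaged -0.014 in WT vehicle, 0.021 in WT fluoxetine, 0.006 in WT lithium, -0.021 in HT vehicle, -0.003 in HT fluoxetine and 0.011 in HT lithium. In bulk tissue, fewer cells of a type and less RNA per cell cannot be told apart.

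Every member was expressed in every library. Per kb of exon, Ehmt2, which adds methyl groups to H3K9 together with EHMT1, had the highest level, 968 ± 57.7 normalised counts per kb (SD, n = 58). Setd7, a monomethyltransferase of H3K4 and of other proteins, followed at 591 ± 44.8 per kb. Smyd2, a methyltransferase of histone and other proteins, had 505 ± 35.8 per kb, and Kdm4b, a demethylase of H3K9 and H3K36, had 381 ± 22.7. At the low end stood Kdm8 at 35.5 ± 4.85 per kb, Suv39h2 at 30.7 ± 3.10, Setdb2 at 30.3 ± 4.15 and Ezh2, a catalytic subunit of Polycomb complex PRC2, at 29.5 ± 5.53. Ezh1, the other catalytic subunit, had 184 ± 8.25 per kb.

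Most neighbours in the order of levels were not separated. In 37 of 43 neighbouring pairs the gap was under the larger SD of the pair. The gap exceeded that SD below Ehmt2, below Setd7, below Smyd2, between Nsd3 and Smyd5, between Kdm5a and Kdm2b, and between Kdm1b and Kdm8. The median member stood at 181 per kb, against 115 for all genes tested. Setd7 was grouped with enzymes of other or disputed target, so the 6 H3K4 methyltransferases counted here and below leave it out. These 6 lay between Kmt2a at 269 ± 36.8 per kb and Setd1b at 118 ± 15.3. The 5 H3K36 methyltransferases lay between Ash1l at 298 ± 39.0 and Nsd3 at 168 ± 11.6.

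**Figure D1:**
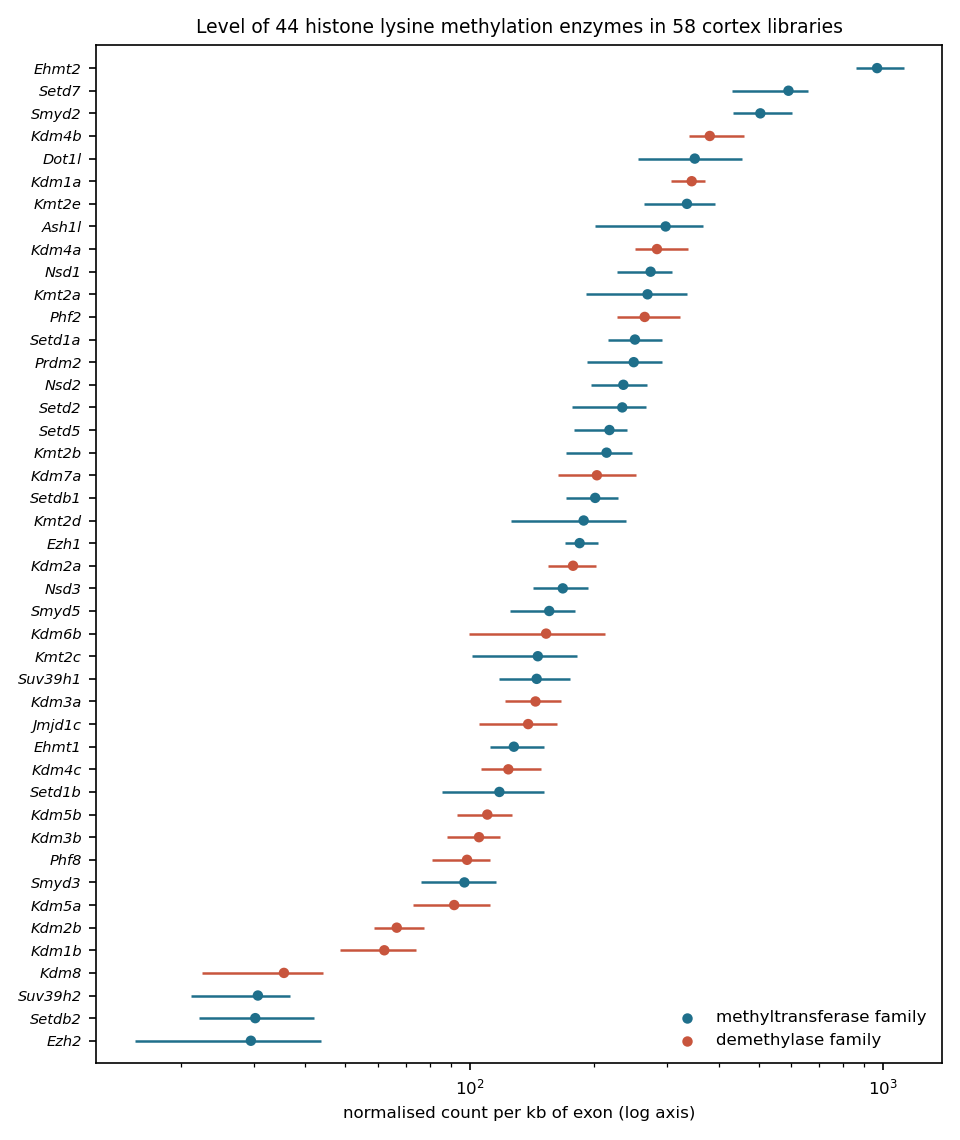
Mean normalised count per kb of exon (log axis) for each of the 44 genes over 58 libraries. Points are means and lines run from the lowest to the highest library, in blue for methyltransferase and red for demethylase families. Ehmt2 lies highest at 968 and Ezh2 lowest at 29.5.

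The median SD of the members within the 12 groups was 0.11 on the log2 scale, against 0.15 for all genes tested. The members also had higher counts, a median of 1674 normalised counts against 511. No set of genes matched on level was compared. Kdm1a, the H3K4 and H3K9 demethylase also called LSD1, varied least with an SD of 0.05. Ezh2 varied most at 0.29, ahead of Kdm6b, the H3K27 demethylase also called JMJD3, at 0.25.

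A shared property that the choice of members did not use was length. The median exon length of the members was 8944.5 bases against 4196 for all genes tested, and 41 of 44 were longer than that median. The longest was Kmt2c with 20291 bases and the shortest Kdm8 with 2389. Across libraries, the levels of long members followed the exon length slope. For Nsd3, an H3K36 methyltransferase of 16513 bases, Pearson's r with the slope was 0.92 and Spearman's rho 0.88 over 58 libraries (permutation p = 1e-05 for each, the smallest 100000 permutations can give, adjusted p = 1.91e-05 over the 44 members). Leaving out the 2 libraries farthest from the median slope gave r = 0.90, and within groups r was 0.91. The slope was computed here without the members. It measures how level rises with exon length over the other genes. Long genes thus tend to rise with it, and short genes to fall, by its definition. The permutations exchanged all 58 libraries without regard to group.

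In all, 36 of 44 members had an adjusted permutation p under 0.05 for this relation, and 23 had r above 0.5. The share of all genes tested that would pass was not counted, so these counts do not set the members apart. Smyd2, with 2717 bases, ran the other way, with r = -0.64 and rho = -0.68 (permutation p = 1e-05 for each, adjusted p = 1.91e-05). Without the 2 farthest libraries its r was -0.60, and within groups it was -0.55. Kdm1a, of 5179 bases, had r = -0.20 and rho = -0.19 (permutation p = 0.13 and 0.15, adjusted p = 0.156), and r was -0.11 without the 2 farthest libraries and 0.10 within groups. The mean correlation between members within groups, over 946 pairs, was 0.31, and 0.13 after the slope was removed. Among all genes tested it was 0.00079. Scaling libraries to a common depth keeps the mean over all genes near 0, and no set matched on length or level was compared. These correlations describe libraries that share depth and length dependence. The mean slope was lowest in the vehicle groups, -0.014 in WT and -0.021 in HT. Slope and treatment were thus partly confounded, and a fit with the slope may also remove part of a drug difference. For members that passed with a drug, it is stated below whether the call held with the slope in the fit. Other values are without the slope unless stated.

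**Figure D2:**
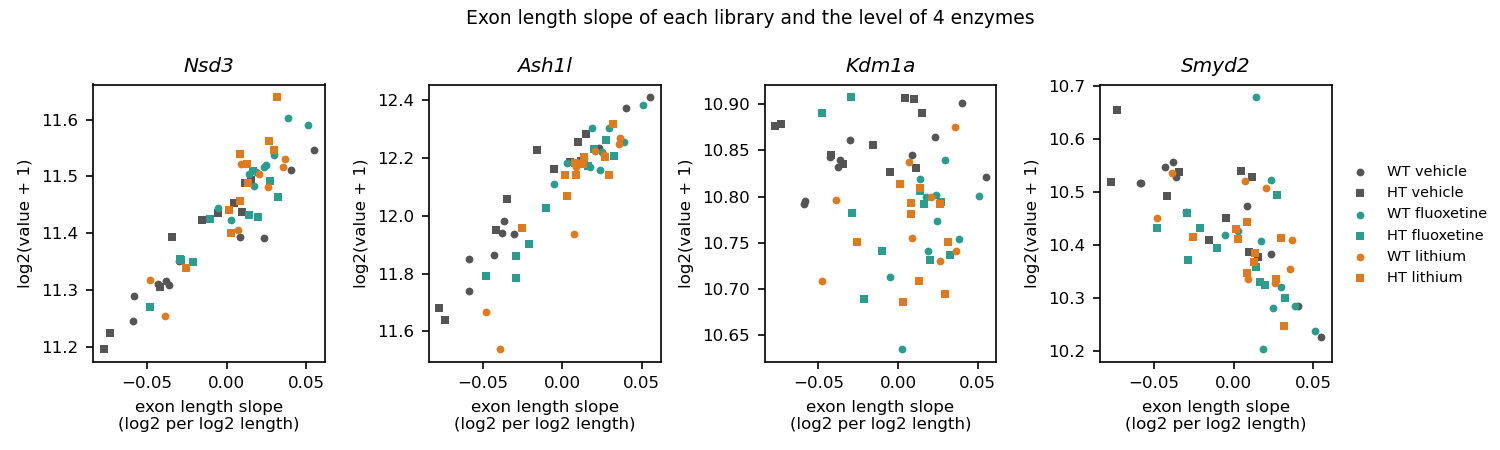
Level of 4 members on a log2 scale against the exon length slope of the library, here over all genes tested, with 1 point per library coloured by treatment and shaped by label. Nsd3 and Ash1l climb with the slope, Kdm1a shows no clear slope, and Smyd2 descends (r = -0.64).

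The first question was whether the HT label for Kmt5b went with altered levels of the other histone methylation enzymes. No member passed an adjusted p of 0.05 in HT against WT, whether under vehicle, fluoxetine or lithium or averaged over treatments. Of all genes tested, 0.048% passed under vehicle, 0.612% under fluoxetine, 0.06% under lithium and 0.468% averaged, so few calls were made anywhere. At an unadjusted p under 0.05, limma counted 3 members under vehicle, 18 under fluoxetine, 1 under lithium and 3 averaged. Of all 16669 genes tested it counted 2035 under vehicle, 2319 under fluoxetine, 1683 under lithium and 1762 averaged. Under vehicle, 33 of 44 members were above 0, with a median log2 difference of 0.03, against 0.0012 for all genes tested. Under fluoxetine, 37 of 44 were below 0, with a median of -0.06, against -0.003. With the exon length slope in the fit, the median was 0.04 with 34 members above 0 under vehicle, and -0.03 with 31 below 0 under fluoxetine.

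The members with the smallest p are given by value. Under vehicle, Kdm4b averaged 1923 ± 95.7 in HT and 1819 ± 97.8 in WT (SD, n = 10 each), a log2 difference of 0.08 (adjusted p = 0.323). Its ranges overlapped, from 1791 to 2060 in HT and from 1693 to 2029 in WT. Ehmt1, the partner of EHMT2, differed by 0.08 (adjusted p = 0.396) and Dot1l by 0.13 (adjusted p = 0.408). Under fluoxetine, Setd7 averaged 6131 ± 444 in HT and 6731 ± 194 in WT (SD, n = 10 each). The log2 difference was -0.14 (95% interval -0.22 to -0.05, adjusted p = 0.105). The lowest WT library, at 6552, lay under the highest HT library, at 6648. Prdm2, of the H3K9 group, differed by -0.20 (adjusted p = 0.115) and Jmjd1c, a relative of the H3K9 demethylase KDM3A, by -0.18 (adjusted p = 0.132). Under lithium, Kmt2d differed by 0.19 (adjusted p = 0.478), Suv39h2 by 0.13 (adjusted p = 0.538) and Suv39h1 by -0.07 (adjusted p = 0.573). Averaged over treatments, Setd7 differed by -0.06 (adjusted p = 0.289), Suv39h2 by 0.09 (adjusted p = 0.382) and Nsd2 by -0.05 (adjusted p = 0.408). The intervals of the averaged differences reached at most from -0.14 to 0.24 on the log2 scale for any member, a width set by Ezh2 at its upper end.

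**Figure D3:**
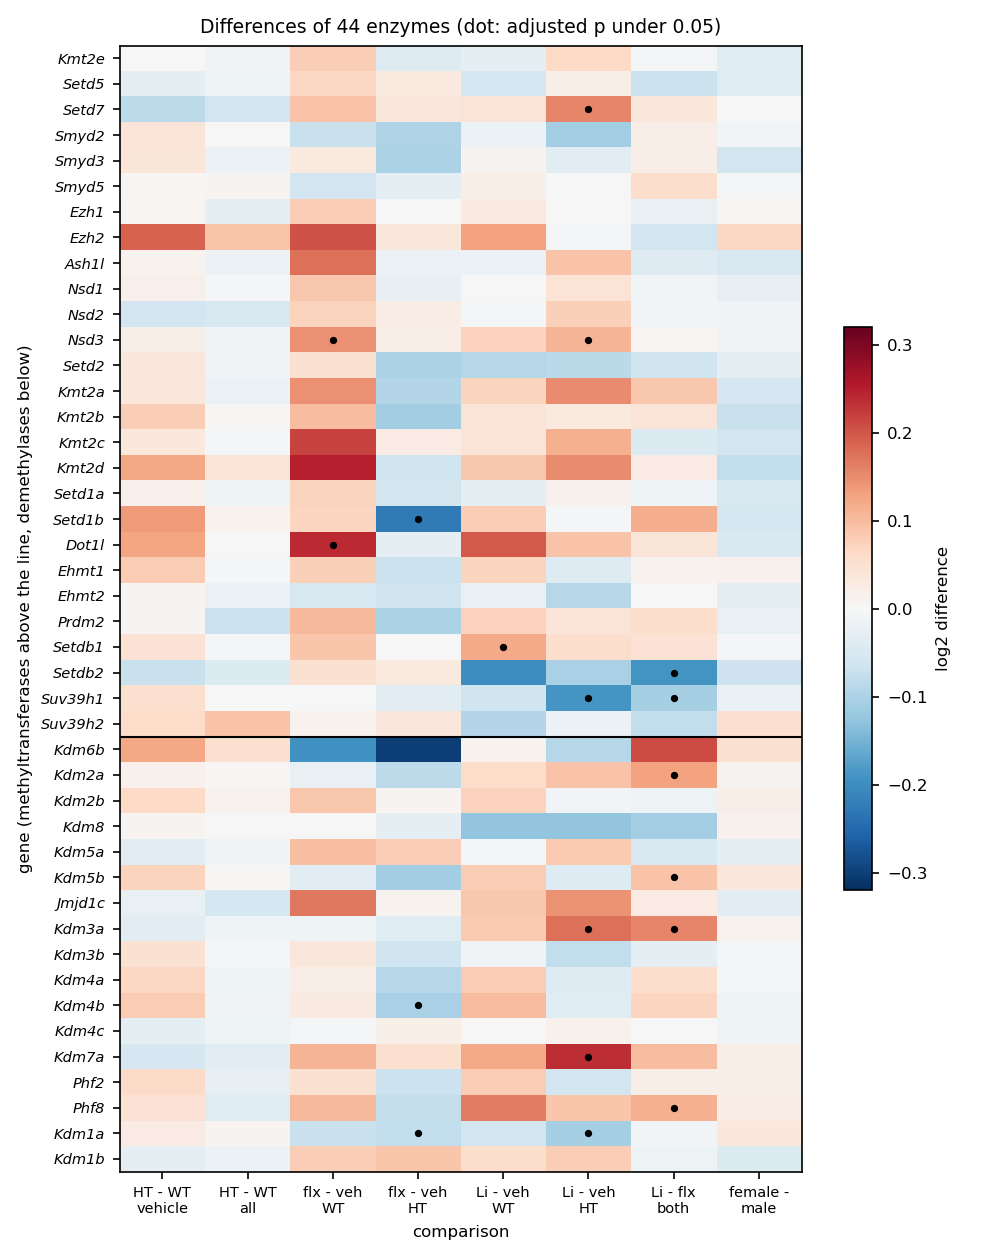
Log2 differences of the 44 genes in 8 comparisons, with methyltransferases above the line and demethylases below, from blue (lower) to red (higher). Dots mark adjusted p under 0.05. No dot lies in the HT minus WT columns or in the female minus male column, and 6 lie in each of the columns for lithium minus vehicle in HT and lithium minus fluoxetine.

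Fluoxetine, a serotonin reuptake inhibitor, was compared with vehicle within each label. In WT cortex, 2 members rose and none fell, 4.55% of the list, against 7.39% of all genes tested, of which 3.98% rose and 3.41% fell. Nsd3 measured 2429 to 2990 normalised counts under vehicle (median 2581) and 2746 to 3110 under fluoxetine (median 2920). All 10 fluoxetine libraries lay above the vehicle median, and the ranges overlapped. The means were 2924 ± 114 and 2646 ± 182 (SD, n = 10 each), a log2 difference of 0.15 (95% interval 0.07 to 0.22, adjusted p = 0.0108). Dot1l, the sole H3K79 methyltransferase, measured 2228 to 3212 under vehicle (median 2814) and 2875 to 3885 under fluoxetine (median 3186). The ranges overlapped, with 4 of 10 fluoxetine libraries above every vehicle library. Its log2 difference was 0.24 (95% interval 0.11 to 0.36, adjusted p = 0.0136). Jmjd1c came next by p, at 0.17 (adjusted p = 0.0606).

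By role, all 6 H3K4 methyltransferases and all 5 H3K36 methyltransferases had positive differences in WT, with medians of 0.12 and 0.09. Nsd3 alone passed among these 11. Positive differences were not particular to these roles. Of all 44 members 33 had them, among them the 2 H3K27 methyltransferases and the 3 genes of the PHF2, PHF8 and KDM7 family. Kmt2d, a large H3K4 methyltransferase of enhancers, averaged 4039 ± 315 under fluoxetine and 3427 ± 514 under vehicle (SD, n = 10 each), a difference of 0.25 (adjusted p = 0.0611). Kmt2c, its close relative, differed by 0.22 (adjusted p = 0.0695). The median over the 44 members was 0.07, against -0.0009 over all genes tested. With the exon length slope in the fit, neither call held. Nsd3 was then at 0.05 (adjusted p = 0.222) and Dot1l at 0.14 (adjusted p = 0.262), and the median of the list was -0.01. Kdm2a, an H3K36 demethylase, was the sole member to pass in that fit, at -0.11 (adjusted p = 0.00197), where 1.64% of all genes passed. Without the slope, leaving out 1 of the 20 libraries gave 2 to 6 calls, with 4 without fluoxetine male 2 or vehicle male 3, 5 without vehicle female 3 and 6 without vehicle female 2.

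In HT cortex, 3 members fell and none rose with fluoxetine, 6.82% of the list, against 12.8% of all genes tested, of which 6.84% rose and 5.96% fell. Kdm1a measured 1815 to 1919 under vehicle (median 1866) and 1650 to 1920 under fluoxetine (median 1766). Of the 10 fluoxetine libraries, 8 lay below every vehicle library, and the other two lay within the upper part of the vehicle range or just above it. The log2 difference was -0.08 (95% interval -0.13 to -0.03, adjusted p = 0.0332). Kdm4b measured 1791 to 2060 under vehicle (median 1931) and 1658 to 1911 under fluoxetine (median 1797). All 10 fluoxetine libraries lay below the vehicle median, with overlapping ranges. Its log2 difference was -0.10 (95% interval -0.17 to -0.04, adjusted p = 0.0363).

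Setd1b, an H3K4 methyltransferase of promoters, measured 1093 to 1829 under vehicle (median 1530) and 1034 to 1610 under fluoxetine (median 1291), with wide overlap. The log2 difference was -0.23 (95% interval -0.38 to -0.07, adjusted p = 0.0461). Kdm6b had the lowest difference of the list, -0.30, and did not pass (95% interval -0.52 to -0.09, adjusted p = 0.0540). It measured 902 to 1380 under vehicle (median 1187) and 752 to 1480 under fluoxetine (median 931), so the highest value of either group was a fluoxetine library. In WT, the Kdm6b difference was -0.19 (adjusted p = 0.258).

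These 3 calls held with the exon length slope in the fit, and the count grew to 16 members lower and none higher, where 14.2% of all genes passed and 7.52% were lower. The additional members with the smallest p were Kdm2a at -0.13 (adjusted p = 7.76e-05), Setd2, which trimethylates H3K36, at -0.16 (adjusted p = 0.000443) and Kmt2a, an H3K4 methyltransferase, at -0.20 (adjusted p = 0.00154). Kdm6b passed in that fit at -0.37 (adjusted p = 0.0124), and the other members that passed lay between -0.17 for Prdm2 and -0.08 for Nsd1. Without the slope, the count rested on particular libraries and ranged from 0 to 5 when 1 of the 20 was left out. It was 0 without fluoxetine male 1, vehicle female 4 or vehicle male 1, and 5 without fluoxetine male 4, vehicle female 2 or vehicle male 3. It was 1 without fluoxetine female 1 or 4, fluoxetine male 3 or 5, vehicle female 3 or 5, or vehicle male 2 or 4. Without the 4 libraries of lowest slope it was 12, all lower. All 4 are vehicle libraries, HT female 1 and 2 and WT male 1 and 5.

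Markers of other cells moved with fluoxetine in HT. Of 14 oligodendrocyte genes, 6 rose and none fell, and their summed level ranged from 66805 to 142573 normalised counts (median 119283) under vehicle and from 87235 to 205538 (median 153933) under fluoxetine. Of 11 astrocyte genes, 4 rose, and of 12 microglia genes, 3 rose. Of 15 mitochondrially encoded genes, 10 rose. The summed level of 13 striatal genes reached 18934 in the highest HT fluoxetine library and 10924 in the highest HT vehicle library. The medians were 10203 with fluoxetine and 10091 with vehicle. For 11 inhibitory neuron genes the medians were 34128 with fluoxetine and 37865 with vehicle. Olfactory bulb genes had a median difference of -1.09, and 1 of 11 fell. With their level in the fit, 4 members fell, where 13.6% of all genes did, and 2 of the 4 were among the 3 above. Setd1b did not pass in that fit, at -0.18 (adjusted p = 0.0769), nor without the 10 libraries of low olfactory bulb level, at -0.14 (adjusted p = 0.26). Of 12 immediate early genes, which neurons induce on activity, 11 fell in HT and 11 fell in WT. The part of these other genes in the members' differences was not tested.

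The genotype difference of the fluoxetine effect gave no call among members, and 0.042% of all genes passed. At an unadjusted p under 0.05, limma counted 15 members, and 1858 of all 16669 genes tested. Of the 44 differences, 40 lay below 0 with a median of -0.10, against -0.001 over all genes tested. Dot1l had the smallest p, at -0.27 (95% interval -0.44 to -0.09, adjusted p = 0.247). Kmt2b followed at -0.21 (adjusted p = 0.273) and Kdm4b at -0.13 (adjusted p = 0.297). With the exon length slope in the fit, 35 of 44 lay below 0 and the median was -0.06. The median was also -0.06 with the olfactory bulb level in the fit and -0.06 without the 10 libraries of low level. In the same comparison the median was -1.86 for olfactory bulb genes, 0.40 for mitochondrially encoded genes and 0.28 for oligodendrocyte genes, and their part in the members' values was not tested.

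**Figure D4:**
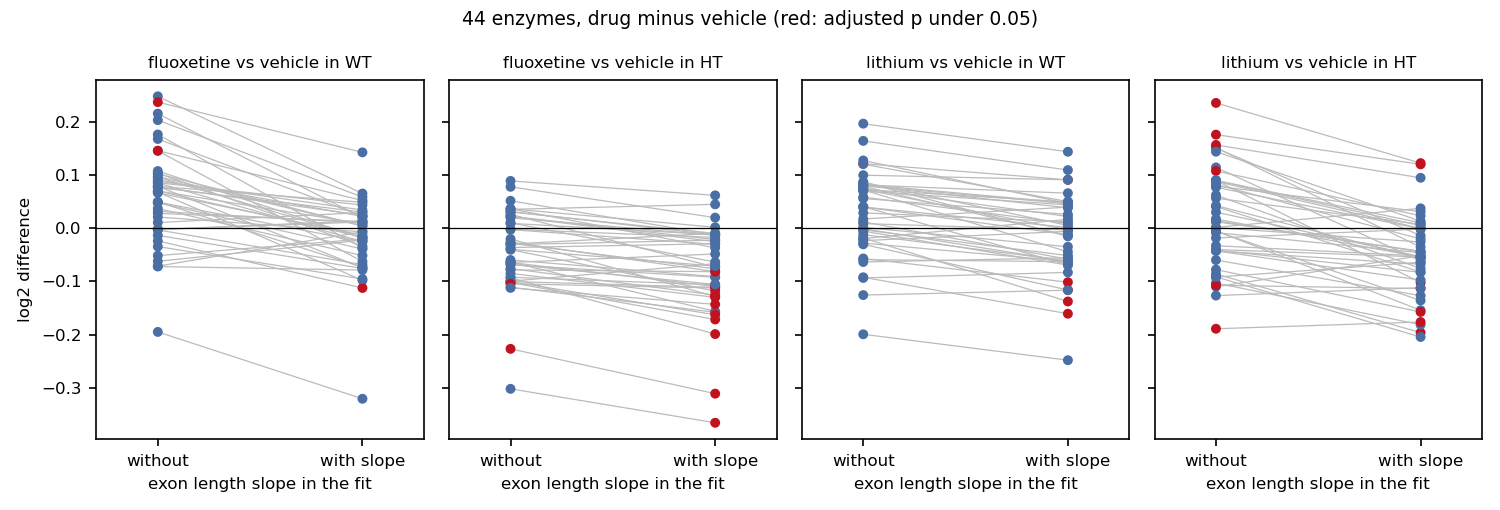
Log2 difference between drug and vehicle for the 44 genes in 4 comparisons, without and with the exon length slope in the fit. Grey lines join a gene's values, and red points have an adjusted p under 0.05. In WT fluoxetine the 2 red points above 0 turn blue, and in HT fluoxetine the red points grow from 3 to 16, all below 0.

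Lithium, a mood stabiliser, was compared with vehicle in the same way. In WT cortex, 1 member rose and none fell, 2.27% of the list, against 3.34% of all genes tested, of which 1.95% rose and 1.39% fell. Setdb1, an H3K9 methyltransferase that silences repeats, measured 1174 to 1424 under vehicle (median 1322) and 1298 to 1568 under lithium (median 1444). The ranges overlapped, with 5 of 8 lithium libraries above every vehicle library. The log2 difference was 0.12 (95% interval 0.05 to 0.19, adjusted p = 0.0293), and with the exon length slope it was 0.09 (adjusted p = 0.0421). In that fit 4 further members passed, all lower, among them Setd2 at -0.16, and 4.13% of all genes passed. Leaving out 1 of the 18 libraries in turn gave counts from 0 to 3. The count was 0 without lithium female 4, lithium male 2, 3 or 4, vehicle female 1 or 4, or vehicle male 5. It was 3 without lithium female 2 or vehicle female 2, and 2 without lithium female 3, vehicle female 3, or vehicle male 2 or 3. The Setdb1 call was lost under 5 of 14 alternatives (adjusted p up to 0.228). It was also lost in 8 of the 18 fits that left out 1 library (adjusted p up to 0.089). Phf8, an X-linked demethylase of H3K9, differed by 0.16 (adjusted p = 0.0530) and Dot1l by 0.20 (adjusted p = 0.0901).

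In HT cortex, 4 members rose and 2 fell with lithium, 13.6% of the list, against 14.1% of all genes tested, of which 7.46% rose and 6.61% fell. The share was therefore near that of genes at large. Kdm3a, an H3K9 demethylase, measured 1074 to 1224 under vehicle (median 1144) and 1208 to 1365 under lithium (median 1295). Of the 10 lithium libraries, 8 lay above every vehicle library. The means were 1292 ± 57.0 and 1143 ± 56.1 (SD, n = 10 each), a log2 difference of 0.18 (95% interval 0.10 to 0.26, adjusted p = 0.00194). Kdm7a, a demethylase of H3K9 and H3K27, measured 1646 to 2117 under vehicle (median 1892) and 1917 to 2545 under lithium (median 2245). All 10 lithium libraries lay above the vehicle median, and 6 above every vehicle library. The difference was 0.24 (95% interval 0.13 to 0.34, adjusted p = 0.00221).

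Suv39h1, an H3K9 methyltransferase of heterochromatin, went down. It measured 707 to 920 under vehicle (median 817) and 619 to 786 under lithium (median 701), and all 10 lithium libraries lay below the vehicle median. The difference was -0.19 (95% interval -0.27 to -0.11, adjusted p = 0.0016). Kdm1a measured 1815 to 1919 under vehicle (median 1866) and 1647 to 1798 under lithium (median 1741). These ranges did not overlap, and the SD of Kdm1a within groups, 0.05, was the smallest of the list. How many of all genes tested were separated in this way was not counted. The same HT vehicle libraries served for its fluoxetine difference above. The lithium difference of Kdm1a was small, -0.11 (95% interval -0.16 to -0.06, adjusted p = 0.00308).

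Setd7 measured 4672 to 6686 under vehicle (median 6258) and 6229 to 6991 under lithium (median 6726). The ranges overlapped, and 6 of 10 lithium libraries lay above every vehicle library. The difference was 0.16 (95% interval 0.07 to 0.24, adjusted p = 0.00824). Nsd3 measured 2346 to 2884 under vehicle and 2589 to 3189 under lithium, a difference of 0.11 (95% interval 0.03 to 0.18, adjusted p = 0.0416). This call was lost under 7 of 14 alternatives and in 10 of 20 fits that left out 1 library, namely lithium female 3, 4 or 5, lithium male 1, 4 or 5, vehicle female 1 or 2, or vehicle male 4 or 5 (adjusted p up to 0.107). In GRCm38, the 6 genes lie as follows. Kdm3a (ENSMUSG00000053470) at chr6:71588972-71632990 and Kdm7a (ENSMUSG00000042599) at chr6:39136623-39206789 share a chromosome, both on the minus strand. Suv39h1 (ENSMUSG00000039231) at chrX:8061171-8074760, Kdm1a (ENSMUSG00000036940) at chr4:136550540-136602723 and Setd7 (ENSMUSG00000037111) at chr3:51515319-51560879 are on the minus strand too, and Nsd3 (ENSMUSG00000054823) at chr8:25601601-25719667 is on the plus strand.

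With the exon length slope in the fit, Kdm3a at 0.12 (adjusted p = 0.022), Kdm7a at 0.12 (adjusted p = 0.0172), Suv39h1 at -0.18 (adjusted p = 0.00706) and Kdm1a at -0.11 (adjusted p = 0.0038) still passed. Setd7 at 0.10 (adjusted p = 0.0835) and Nsd3 at 0.02 (adjusted p = 0.471) did not. The count was then 2 higher and 5 lower, where 10.1% of all genes passed. The members added were Setd2 at -0.20, Kdm3b at -0.16 and Ash1l, an H3K36 methyltransferase, at -0.10, whose difference without the slope was 0.09. Beside these calls, 7 of 12 cell cycle genes fell and none rose, and their summed level ranged from 1563 to 2003 normalised counts under vehicle and from 1351 to 1597 under lithium. Of 12 endothelial and mural genes, 5 fell. Of 12 immediate early genes, 3 fell, and of 15 mitochondrially encoded genes, 5 rose. Olfactory bulb genes had a median difference of -1.03, with none of 11 passing, and 3 HT lithium but 0 HT vehicle libraries were among those of low level. Their part in the members' differences was not tested.

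**Figure D5:**
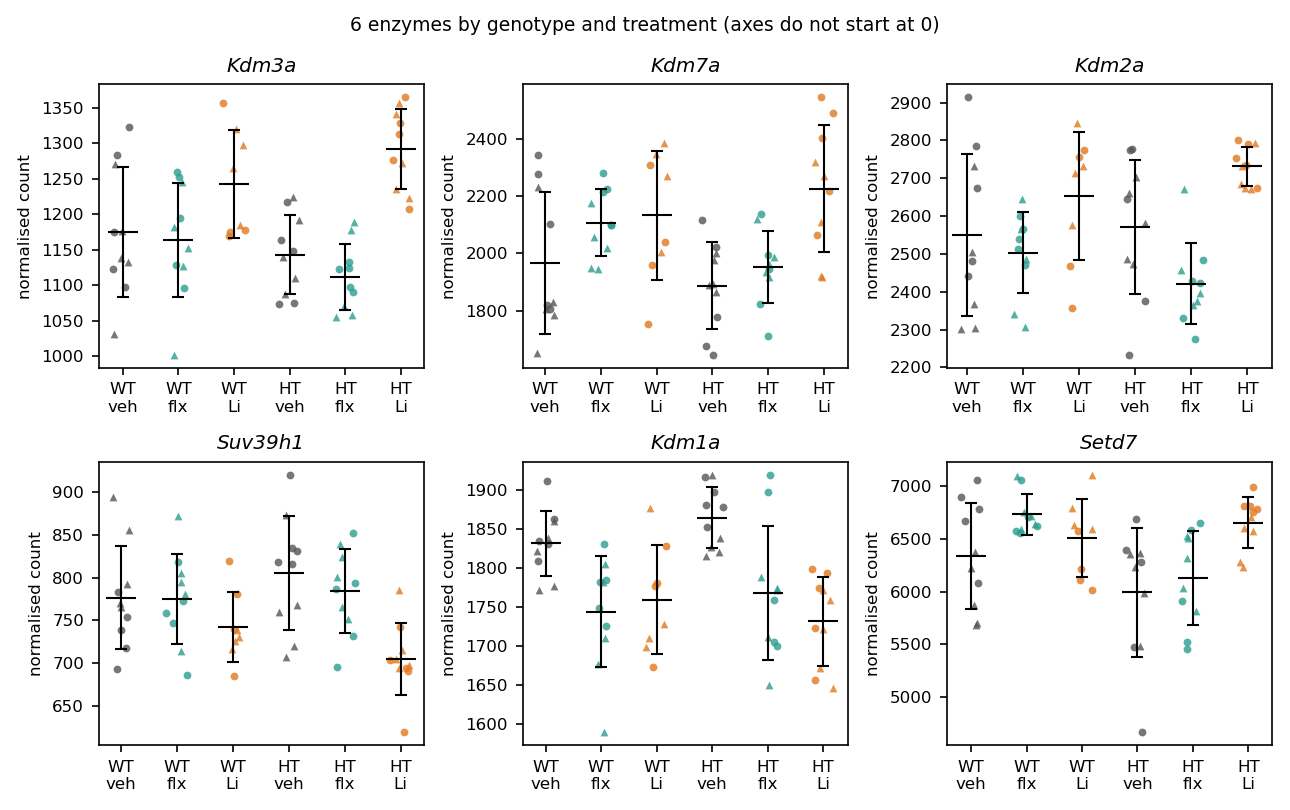
Normalised counts of 6 members in every library by label and treatment. Circles are females, triangles males, and bars the mean ± SD of 10 libraries (8 for WT lithium); axes do not start at 0. In HT, the lithium points for Kdm3a lie between 1208 and 1365, mostly above vehicle, and those for Kdm1a lie below 1815, the lowest vehicle value.

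In WT, the same genes were given by value. The lithium difference in WT was 0.08 for Kdm3a (adjusted p = 0.325), 0.12 for Kdm7a (adjusted p = 0.277), -0.06 for Suv39h1 (adjusted p = 0.522), -0.06 for Kdm1a (adjusted p = 0.256), 0.04 for Setd7 (adjusted p = 0.728) and 0.07 for Nsd3 (adjusted p = 0.346). The difference between genotypes in the lithium effect passed for no member and for no gene tested, at 0% of all genes. At an unadjusted p under 0.05 it counted 4 members and 2320 genes. Kdm4b had the smallest p at -0.14 (adjusted p = 0.235), followed by Kdm4a at -0.12 (adjusted p = 0.284) and Kdm5b at -0.12 (adjusted p = 0.34). For Suv39h1 it was -0.13 (95% interval -0.25 to -0.0043, adjusted p = 0.341).

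The sequence before the start is shown for 4 members that changed with lithium in HT, Kdm3a and Kdm7a, which rose, and Suv39h1 and Kdm1a, which fell. Phf8, which passed against vehicle in neither genotype, is shown because its window held a cyclic AMP response element. The windows came from the RefSeq promoter table for GRCm38.p6 and run 5′ to 3′ on the gene's strand, limited to 250 bases before the start and cut where a GENCODE transcript of the gene begins. Capitals mark matches to the motifs searched on both strands: TGACGTCA (CRE), TGANTCA (AP-1), CACGTG (E-box), ACGTG or GCGTG (the core of the hypoxia response element), TGTTCT (glucocorticoid receptor motif) and an SRF site. The E-box contains the hypoxia core, so each E-box counts under both.
Kdm3a, chr6:71632991-71633167, minus strand: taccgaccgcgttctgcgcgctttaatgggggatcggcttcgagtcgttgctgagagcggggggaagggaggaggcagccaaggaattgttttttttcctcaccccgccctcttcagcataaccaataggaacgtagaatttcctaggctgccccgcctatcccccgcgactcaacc
Kdm7a, chr6:39206790-39207023, minus strand: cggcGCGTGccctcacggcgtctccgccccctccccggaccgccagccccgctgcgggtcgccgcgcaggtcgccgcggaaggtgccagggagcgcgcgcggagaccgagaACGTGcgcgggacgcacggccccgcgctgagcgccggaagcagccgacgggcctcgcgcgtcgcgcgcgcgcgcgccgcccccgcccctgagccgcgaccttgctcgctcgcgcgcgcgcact
Suv39h1, chrX:8074761-8075010, minus strand: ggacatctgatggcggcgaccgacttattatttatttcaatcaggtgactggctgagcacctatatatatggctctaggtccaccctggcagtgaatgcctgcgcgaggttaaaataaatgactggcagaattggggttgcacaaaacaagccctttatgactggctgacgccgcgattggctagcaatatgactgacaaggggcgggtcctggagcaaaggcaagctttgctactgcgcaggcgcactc
Kdm1a, chr4:136602724-136602973, minus strand: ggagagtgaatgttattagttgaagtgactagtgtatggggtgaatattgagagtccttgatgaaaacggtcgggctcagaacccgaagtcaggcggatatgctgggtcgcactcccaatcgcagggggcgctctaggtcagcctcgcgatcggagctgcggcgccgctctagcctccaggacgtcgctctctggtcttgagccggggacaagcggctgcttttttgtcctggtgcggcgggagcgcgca
Phf8, chrX:151520422-151520671, plus strand: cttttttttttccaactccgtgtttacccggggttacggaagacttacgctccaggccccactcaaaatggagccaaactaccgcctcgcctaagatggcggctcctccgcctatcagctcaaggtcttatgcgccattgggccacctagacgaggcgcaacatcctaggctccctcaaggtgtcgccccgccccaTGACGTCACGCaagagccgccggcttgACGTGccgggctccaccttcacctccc

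The Phf8 window holds 1 CRE, which overlaps a hypoxia core on the other strand, and a further hypoxia core. The Kdm7a window holds 2 hypoxia cores and 52 CpG sites in 234 bases, 82.1% G and C. The windows of Kdm3a, Suv39h1 and Kdm1a hold none of the motifs in the stretch shown. Windows not shown hold an AP-1 motif for Kdm3a and a hypoxia core for Suv39h1, and the stretch cut from the Kdm3a window holds a hypoxia core. These count in the shares that follow. RefSeq windows were found for 30 of the 44 members, 39 windows in all. Their median G and C content was 67.2%, against 52.4% over 32851 windows, with a median of 23 CpG sites against 6. The hypoxia core was in 64.1% of the members' windows and in 38.6% of all windows. A CRE was in 5.13% against 1.55%, in Phf8 and Suv39h2, and an AP-1 motif in 5.13% against 6.75%. An E-box was in 7.69% against 6.02%, the glucocorticoid receptor motif in 5.13% against 16.1%, and the SRF site in none against 0.0609%. The hypoxia core, the CRE and the E-box each contain a CpG, and no windows matched on CpG content were compared. Some windows of the same gene overlap, as for Kdm2b, so windows are not independent. A match describes the letters and not a bound site.

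Lithium was also compared with fluoxetine, averaged over genotypes, a comparison that uses no vehicle library. In it, 4 members were higher with lithium and 2 lower, 13.6% of the list, against 12.3% of all genes tested, of which 6.62% were higher and 5.71% lower. The 4 higher members are demethylases and the 2 lower members are H3K9 methyltransferases, but neither family moved as a whole. Of all 17 demethylases, 10 lay above 0, with a median of 0.03. Of all 7 H3K9 methyltransferases, 4 lay above 0, with a median of 0.0003. Kdm3a measured 1002 to 1260 under fluoxetine (20 libraries, median 1128) and 1169 to 1365 under lithium (18 libraries, median 1274). All 18 lithium libraries lay above the fluoxetine median. The log2 difference was 0.16 (95% interval 0.10 to 0.21, adjusted p = 0.000118). Kdm2a measured 2275 to 2673 under fluoxetine (median 2463) and 2357 to 2846 under lithium (median 2733), and 14 of 18 lithium libraries lay above every fluoxetine library. The difference was 0.13 (95% interval 0.07 to 0.18, adjusted p = 0.000659).

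Phf8 measured 770 to 1028 under fluoxetine (median 907) and 857 to 1042 under lithium (median 961), with wide overlap. Its difference was 0.11 (95% interval 0.04 to 0.18, adjusted p = 0.0225). Kdm5b, an H3K4 demethylase, measured 1592 to 2010 under fluoxetine (median 1760) and 1702 to 2095 under lithium (median 1862), a difference of 0.09 (95% interval 0.03 to 0.15, adjusted p = 0.0311). Suv39h1 measured 686 to 872 under fluoxetine (median 784) and 619 to 819 under lithium (median 716). Of 20 fluoxetine libraries, 17 lay above the lithium median, and the difference was -0.11 (95% interval -0.17 to -0.05, adjusted p = 0.0133). Setdb2, an H3K9 methyltransferase at a low level, measured 105 to 170 under fluoxetine (median 129) and 96.6 to 137 under lithium (median 111), a difference of -0.19 (95% interval -0.31 to -0.07, adjusted p = 0.0264).

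All 6 of these calls held with the exon length slope in the fit, where 9 members were higher and 3 lower and 16% of all genes passed. Kdm2a was then at 0.13 (adjusted p = 1.28e-08). Kdm7a at 0.10 (adjusted p = 0.00206) and Kdm6b at 0.21 (adjusted p = 0.0391) were among those added. Without WT lithium female 4, and also without the 10 libraries of low olfactory bulb level, 3 members passed. In the same comparison 10 of 12 immediate early genes were higher with lithium, 5 of 12 cell cycle genes lower and 3 of 14 oligodendrocyte genes lower. The part of these in the members' differences was not tested.

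Between females and males, averaged over genotype and treatment, no member passed, and 0.132% of all genes did. At an unadjusted p under 0.05, limma counted 2 members, and 1376 of all 16669 genes tested. Kmt2b, an H3K4 methyltransferase, differed by -0.07 for females minus males (adjusted p = 0.514), Kdm1a by 0.03 (adjusted p = 0.561) and Setd1a by -0.05 (adjusted p = 0.607). The X-linked members Phf8 and Suv39h1 did not pass. Phf8 averaged 926 ± 73.5 in females and 910 ± 81.9 in males, and Suv39h1 759 ± 64.8 and 771 ± 56.9 (SD, n = 29 each). Relatives outside the list did differ. Kdm6a, an X-linked H3K27 demethylase known to escape X inactivation, averaged 1054 ± 129 in females and 812 ± 82.2 in males (SD, n = 29 each), a log2 difference of 0.37 (adjusted p = 2.53e-11). Kdm5c, an X-linked H3K4 demethylase that also escapes, averaged 1921 ± 165 and 1625 ± 117, a difference of 0.24 (adjusted p = 2.94e-08). Their Y-linked counterparts Uty and Kdm5d fell between 376 and 1118 normalised counts in males and at or below 10.7 in females.

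Without the exon length slope in the fit, genes that work with the members were described from lists. These lists were drawn up by function, with earlier results of these data known. Their counts stand against 3.98% of all genes higher and 3.41% lower with fluoxetine in WT, 6.84% and 5.96% with fluoxetine in HT, 1.95% and 1.39% with lithium in WT, and 7.46% and 6.61% with lithium in HT. Of 6 DOT1L partners, 3 rose with fluoxetine in WT, Mllt3 by 0.19, Mllt10 by 0.16 and Aff1, a subunit of the super elongation complex, by 0.33 on the log2 scale. With lithium in HT, Aff1, Mllt3 and Mllt10 passed, Mllt3 at 0.14, Mllt10 at 0.13 and Aff1 at 0.53 (adjusted p = 9.78e-05), and in WT Aff1 alone passed, at 0.43. Fluoxetine and lithium in WT were compared with the same vehicle libraries. With fluoxetine in HT, Mllt3 passed at 0.18 and Mllt1 at -0.12. Of 13 partners of LSD1, Rcor2, a CoREST scaffold, fell with fluoxetine by 0.40 in WT and by 0.34 in HT, and none passed with lithium in either genotype. Phf21a passed at 0.12 with fluoxetine in WT and Phf21b at -0.33 in HT.

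Of 25 Polycomb subunits, 3 fell with fluoxetine in WT and 4 in HT. Rbbp7 and Cbx8 were among the lower genes in both. With lithium in HT, 4 fell and 2 rose, with differences of -0.16 for Rbbp7, 0.14 for Pcgf3 and 0.26 for Pcgf6 among them. Of 15 COMPASS subunits, which serve the H3K4 methyltransferases, Rbbp5 rose by 0.12 with fluoxetine in WT, and Men1 and Wdr82 fell by 0.15 and 0.10 in HT. With lithium in HT, Hcfc2 rose by 0.22. Of 11 H3K9 partners tested, Trim28, the corepressor that recruits SETDB1, fell by 0.10 with fluoxetine in HT and by 0.11 with lithium in HT, and Uhrf1, a gene of dividing cells, fell by 0.74 with lithium in HT, where Mphosph8 rose by 0.12. Of 10 H3K36 readers and partners, Brpf1 fell by 0.19 and Phf20l1 rose by 0.16 with fluoxetine in HT. Of 22 other lysine methylation enzymes, 3 fell with fluoxetine in WT and 2 in HT. Jmjd6 fell by 0.16 with fluoxetine in HT and rose by 0.12 with lithium in WT. Riox1 fell by 0.29 with fluoxetine in WT and by 0.20 in HT, and Kmt5a, which monomethylates histone H4, rose by 0.19 with lithium in HT, where Riox1 and Setd6 each fell by 0.18.

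The genes whose level ran most closely with a member were taken over 58 libraries after group means were removed, for the 3 members with the most calls, ranked by p. For Kdm3a these were Cep135 (r = 0.74), Tut4 (0.72), Baz2b (0.71), Smchd1 (0.70) and Lrp6 (0.70), with exon lengths from 7188 to 19982 bases. For Suv39h1 they were Dbndd2 (r = 0.73), Spin1 (0.71), Exog (0.70), Dgat2 (0.69) and Slc2a3 (0.69), from 3083 to 7245 bases. For Kdm1a they were Chrm4 (r = 0.61), Csrnp2 (0.55), Dyrk3 (0.54), Scfd2 (0.53) and Cbx8 (0.53). These values describe libraries that share depth and length dependence.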

How the data were processed

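Per the submitters' processing notes, Salmon 0.11.2, R 3.6.0, DESeq2 1.19.11 and GRCm38 were used; the annotation release is not given in the sources used here. The authors deposited normalised signal values, 1 per gene and library. Within each library, 100% of the values were multiples of a smallest step (tolerance 0.01), the worth of a read, which ranged from 0.75 to 1.27. For 4 libraries (HT vehicle male 1 and 5, HT vehicle female 2, HT lithium male 3) that step lay too close to 1 to be told from it, so count tests ran on the other 54 libraries.

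Symbols, positions and exon lengths came from GENCODE M21 (GRCm38), and 18077 IDs matched. limma 3.58.1 (R 4.3.3, variance trend) was fitted to log2(value + 1) of the 16669 genes with a mean of at least 10, which left out 1419, with 12 group means over all 58 libraries and sexes averaged. Differences are on that log2 scale. In each of 12 comparisons p values were adjusted over every gene in the fit by the Benjamini-Hochberg method, with a threshold of 0.05.

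The 44 members and all gene lists were chosen with earlier results of these data known. Every member that passed was described, and where fewer than 3 passed, the 3 with the smallest p. Of each list, up to 4 genes were described in a comparison, not always those with the smallest p. The result of 1 listed gene is not reported here. Alternatives changed scaling, trend, filter, pseudocount, libraries in the fit, covariates and test (edgeR 4.0.16), and each library was left out in turn. The limma and edgeR steps were checked on simulated data with known changes. Group labels came from the sample titles. Replicate numbers did not pair libraries. The permutation test for Kmt5b drew 100000 relabellings within sex and treatment.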

Additional observations from a re-analysis of the deposited data

Results flagged for a closer look

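Among the 14 members that passed in at least 1 comparison and Kmt5b, 90 groups of 8 or 10 libraries were screened for a library far from the others, and 3 values stood apart. Chance gives about 1 in 20 groups. Setd1b was at 1810 normalised counts in WT fluoxetine male 1, above the next library at 1442. Kdm2a was at 2673 in HT fluoxetine male 4, above the next at 2483. Phf8 was at 867 in HT lithium male 3, below the next at 942.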

How the results depend on the processing

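Counts are members that passed out of 44. Of the members described as passing, or as having the smallest p, without a covariate, none changed direction under any alternative. Ash1l with lithium in HT, named for its value with the exon length slope, went from 0.09 to -0.10. Kdm3a, Kdm7a and Kdm1a (lithium in HT) and Kdm3a, Kdm2a and Setdb2 (lithium against fluoxetine) passed under all 14. With the exon length slope as covariate, the counts were 1 for fluoxetine in WT, 16 for fluoxetine in HT, 5 for lithium in WT and 12 for lithium against fluoxetine, and Kmt5b passed at 0.094 (adjusted p = 0.0096). With the olfactory bulb level as covariate, fluoxetine in WT gave 4 and Kmt5b passed at 0.075 (adjusted p = 0.0347). Fluoxetine in HT gave 0 after quantile normalisation, 5 with a mean of at least 100, 1 with the compared groups alone, 1 by limma on 54 libraries and 1 by edgeR on 54. Lithium in WT gave 0 after quantile normalisation, 2 with a mean of at least 100, 0 with the compared groups alone and 0 with the replicate block. Lithium in HT gave 3 on 54 libraries by limma and 3 by edgeR, and HT against WT under fluoxetine gave 1 by limma there. Chosen after seeing the data, leaving out the 4 libraries of lowest slope gave 2 for HT against WT under fluoxetine, 1 for fluoxetine in WT, 12 for fluoxetine in HT and 0 for lithium in WT. Leaving out the 10 libraries of low olfactory bulb level gave 1 for fluoxetine in WT, 0 for lithium in WT and 3 for lithium against fluoxetine. The cause was not tested.

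Leaving out 1 library gave 0 to 1 for HT against WT under fluoxetine (1 without HT fluoxetine female 3), 2 to 6 for fluoxetine in WT, 0 to 5 for fluoxetine in HT, 0 to 3 for lithium in WT, 5 to 8 for lithium in HT and 3 to 9 for lithium against fluoxetine (3 without WT lithium female 4). Over all genes, fluoxetine in WT called 1232, against 273 with the slope, 589 without the 4 libraries and 679 without the 10. Fluoxetine in HT called 2134, against 4185 with the olfactory bulb level and 789 by limma and 817 by edgeR on 54 libraries. Lithium in HT called 2345, against 1061 by limma and 1074 by edgeR there, and lithium in WT called 556, against 229 with the compared groups alone and 310 without the 10. On the 54 libraries edgeR called 1114 for fluoxetine in WT, 533 for lithium in WT and 1757 for lithium against fluoxetine. HT against WT under fluoxetine called 102, against 14 with the slope, 302 with the olfactory bulb level, 208 without the 4 libraries, 36 after quantile normalisation, 7 with the compared groups alone and 2 without the 10.

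Same-numbered libraries had a mean correlation of -0.0067 (range -0.47 to 0.42 over 309 pairs), and 11 of 58 libraries were closest to their own number. With the replicate block, fluoxetine in HT gave 2 calls, and counts other than lithium in WT stayed within 1.5 times.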
